A study of Mus musculus with 7 samples.

Results

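The 40 genes described here are named by symbol among the 25322 genes of the deposited table, as genes of macrophages, monocytes, dendritic cells and Langerhans cells. All 40 were found and all passed the filter on low values. Bulk RNA-seq measured them in skin cells that were sorted for the red reporter tdTomato at day 36, in 3 control libraries and 4 libraries of knockouts of Zfp750, the mouse counterpart of the epidermal transcription factor ZNF750. By genotype, 2 controls were ZNF750 wt/fl and 1 was wt/wt, and the 4 knockouts were fl/fl. Every mouse carried 1 copy of a tamoxifen-inducible Cre driven by the promoter of Lrig1, which marks stem cells of the upper hair follicle, labelled as Lrig1-CreERT2 or Lrig1-CreER +/-, and all received 4-hydroxytamoxifen, the controls too, on days 4 to 7 or 5 to 8 after birth. Rosa26, the reporter locus, is given as +/- for all samples except 1 knockout given as -/-. The columns of the table name the genotype but cannot be tied to single sample titles, so neither that sample nor the wt/wt control can be pointed out. The libraries are called by the short names of their columns: 4F, 4M, 7F for the controls and 1M, 2M, 3F, 6F for the knockouts, and values are given in this order. The labels do not tie each library to a separate animal, so a p-value here reflects the spread between libraries alone. In bulk RNA, fewer cells of a type and less RNA per cell cannot be told apart.

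Macrophages and dendritic cells are leukocytes that take up and present material in the skin. Resident dermal macrophages lie along vessels and nerves, carry scavenger receptors and lectins, and are partly renewed from blood monocytes that enter the skin. Dendritic cells carry antigen to lymph nodes, and Langerhans cells are their counterpart within the epidermis. All of these cells express Ptprc, the leukocyte antigen CD45. For a gene that only leukocytes express, the level relative to Ptprc describes the kind of leukocyte RNA in a library rather than its amount. For a gene that other cells also express, the ratio depends as well on how much RNA of those cells the library holds.

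The libraries held 9.09 to 17.1 M reads. The targeted gene Zfp750 had normalized values of 51.2 to 335 in controls and of 10.1 to 48.9 in knockouts, so the groups did not overlap. It lies within Tbcd on the other strand, and reads of the pair cannot be told apart without strand. Leukocyte RNA differed far more within than between the groups: normalized values of Ptprc were 58.8 (4F), 5652 (4M) and 7853 (7F) in controls against 538 (1M), 517 (2M), 13422 (3F) and 10251 (6F) in knockouts. The low libraries were control 4F, with 76 reads of Ptprc, and knockouts 1M and 2M, with 517 and 535, and the other 4 held 4305 to 14884. Keratinocyte markers summed to 108 to 1525 per M of the library total and fibroblast markers to 10869 to 140286 per M.

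The 40 genes were ordered by the amount of leukocyte RNA more than by genotype. In 35 of the 40, the leukocyte-rich libraries 4M, 7F, 3F and 6F all lay above the leukocyte-poor 4F, 1M and 2M, an arrangement found in 23.2% of the 18141 genes tested. Among the 38 genes without a value of 0, the highest library exceeded the lowest by 2.24-fold for Apoe, the smallest such range, and by 1351-fold for Retnla, the largest, with a median of 88.04-fold. The exceptions were Arg1, Nos2 and Chil3, which had low values, and Apoe and Gpnmb, which many other cells of the skin express. Gpnmb was arranged the other way round, higher in all 3 leukocyte-poor libraries than in any of the other 4. Per kilobase of exon, Lyz2 had the highest level of the 40 in the 4 leukocyte-rich libraries, at 1266 to 2602 per M and kilobase. In the leukocyte-poor libraries that place was taken by Apoe.

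**Figure D1:**
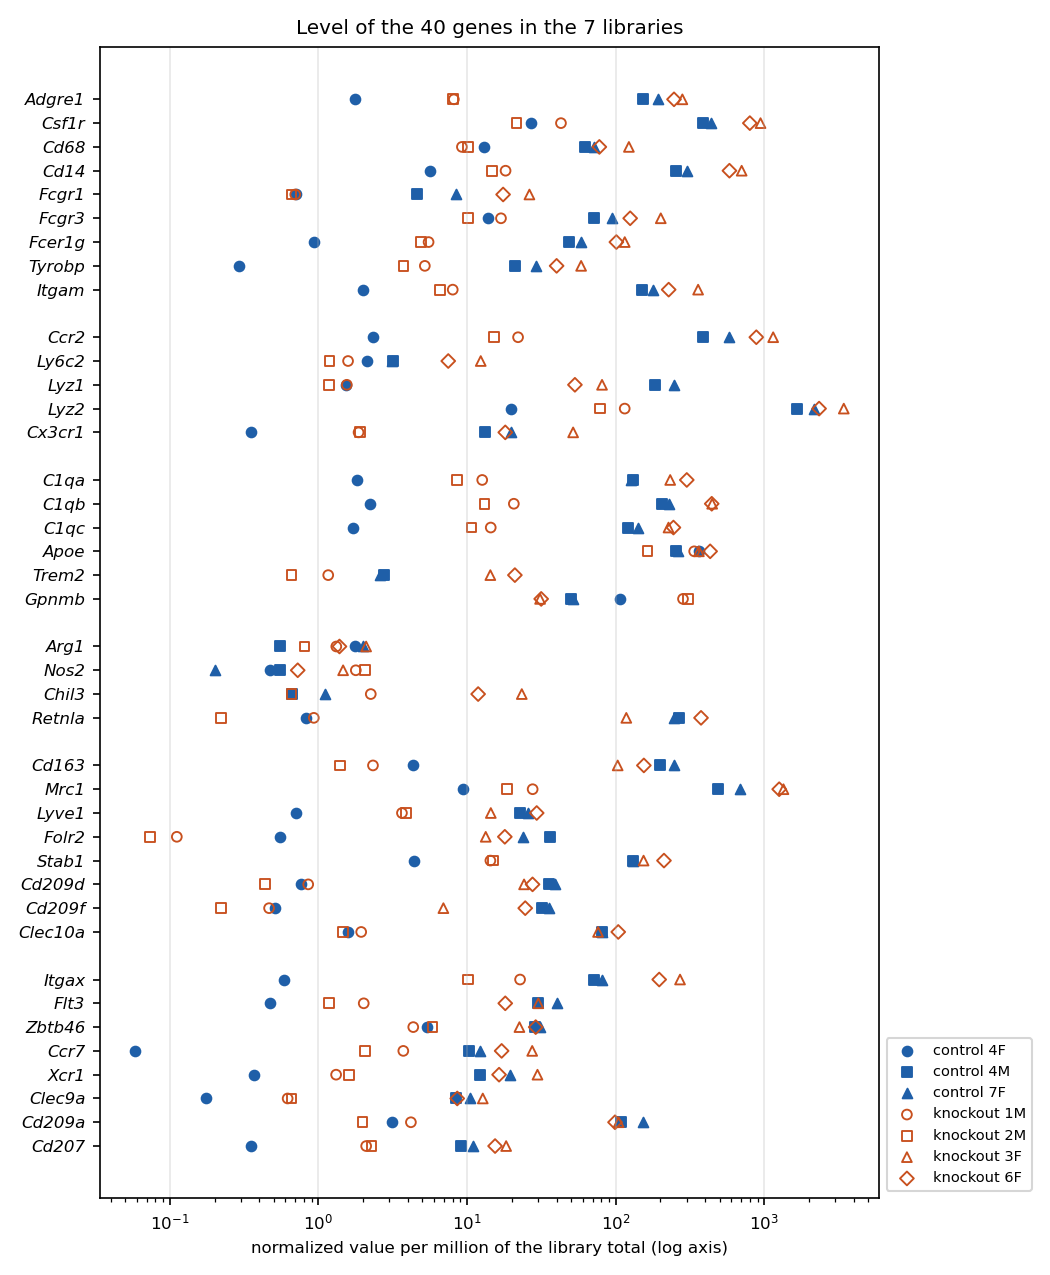
Normalized value per M of the library total (log axis) of each of the 40 genes in the 3 control libraries (filled) and the 4 knockout libraries (open), grouped by role; the 2 values of 0, of Trem2 and Chil3 in control 4F, are not drawn. In 35 of the 40 rows, libraries 4M, 7F, 3F and 6F lie to the right of 4F, 1M and 2M.

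The comparison of knockouts with controls asks how these genes differ after loss of Zfp750. With genotype as the only term of a limma fit over all 18141 genes, none of the 40 passed an adjusted p of 0.05, and 0% of all genes did. With array weights in the same fit, 2 of the 40 were higher and 19 lower, and 3795 genes passed in all. At an unadjusted p under 0.05 there were 2 of the 40, both higher in knockouts, against 5.83% of all genes. These were Nos2, the inducible nitric oxide synthase, with a log2 difference of 0.81 ± 0.30 (SE, limma adjusted p = 0.743), and Chil3, a chitinase-like protein of activated mouse macrophages, with 2.06 ± 0.85 (SE, limma adjusted p = 0.823). Nos2 was also the only 1 of the 40 whose normalized values did not overlap between the groups, where 3.19% of all genes were higher without overlap and 3.91% lower. The filter asked for 1 per M in at least 3 libraries, and Nos2 met it only through knockouts 1M, 2M and 3F. It stood at 0.201 to 0.550 per M in controls. Its place among the genes tested thus rests on the group where it is high, and its difference is no separate support. The median log2 difference of the 40 was 0.17, beside 0.02 for all genes. The standard errors of genes that track Ptprc were wide in this fit, as for Cd163 with -1.80 ± 1.90 (SE). With M and F in the column names read as male and female, a limma test of genotype by sex passed for 0 of the 40 and 0.0165% of all genes, and at an unadjusted p under 0.05 for 31 of the 40 and 29% of all genes. Both male knockouts were leukocyte-poor and both female knockouts leukocyte-rich, so sex and leukocyte RNA cannot be told apart within the knockouts.

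Set against Ptprc in the same library, several genes of resident macrophages and the lysozyme gene Lyz1 stood lower in knockouts, and a few genes stood higher. The groups did not overlap for 13 of the 40: in 10 each knockout lay below each control, and in 3 above, where 0.601% and 0.386% of all genes lay apart in those directions. These shares are a low background for genes that follow Ptprc. Ptprc varied widely within both groups, so the ratios of genes that do not follow it tend to overlap. The lower ones were Lyz1, Lyz2, Adgre1, Cd163, Folr2, Cd209d, Cd209f, Clec10a, Flt3 and Cd209a, and the higher ones were Itgax, Trem2 and Chil3. For Trem2 and Chil3 control 4F is at 0, but 3 reads there would be 3.95% of Ptprc, more than every knockout ratio of these genes except that of Chil3 in 1M, so only 4M and 7F set them apart. With a pseudocount in both terms of the ratio 9 lay apart, all lower. For the 11 of these 13 without a value of 0, a two-sided exact permutation test of the group labels gave p = 0.0571. This is the smallest value that its 35 arrangements allow, so no single ratio could pass 0.05. Groups that do not overlap are the most extreme arrangement, so the choice of these genes fixed this result and it adds no support. In a limma fit over 18140 genes with log2 Ptprc as a covariate, which compares the genotypes at equal Ptprc, 7 of the 40 fell and 0 rose, at an adjusted p under 0.05. Of all genes, 1.55% fell and 0.739% rose. The 7 were Lyz1, Cd163, Cd209f, Folr2, Cd209a, Cd209d and Flt3. The median difference of the 40 was -0.37 on the log2 scale, beside 0.02 for all genes, and at an unadjusted p under 0.05 in limma there were 3 higher and 13 lower, against 16.1% of all genes in either direction. All 7 falls were called also without control 4F, the library poorest in leukocyte RNA, but without control 4M, control 7F or knockout 3F the fall of Lyz1 alone passed, and without knockout 1M or 2M 2 and 3 falls did. Trem2 and Chil3 rose as well in the fit without control 4F. In that fit 1646 of all genes passed, against 415 with all libraries. It also had no leukocyte-poor control, so the comparison at equal Ptprc had only knockouts at the low end, for the falls as well.

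**Figure D2:**
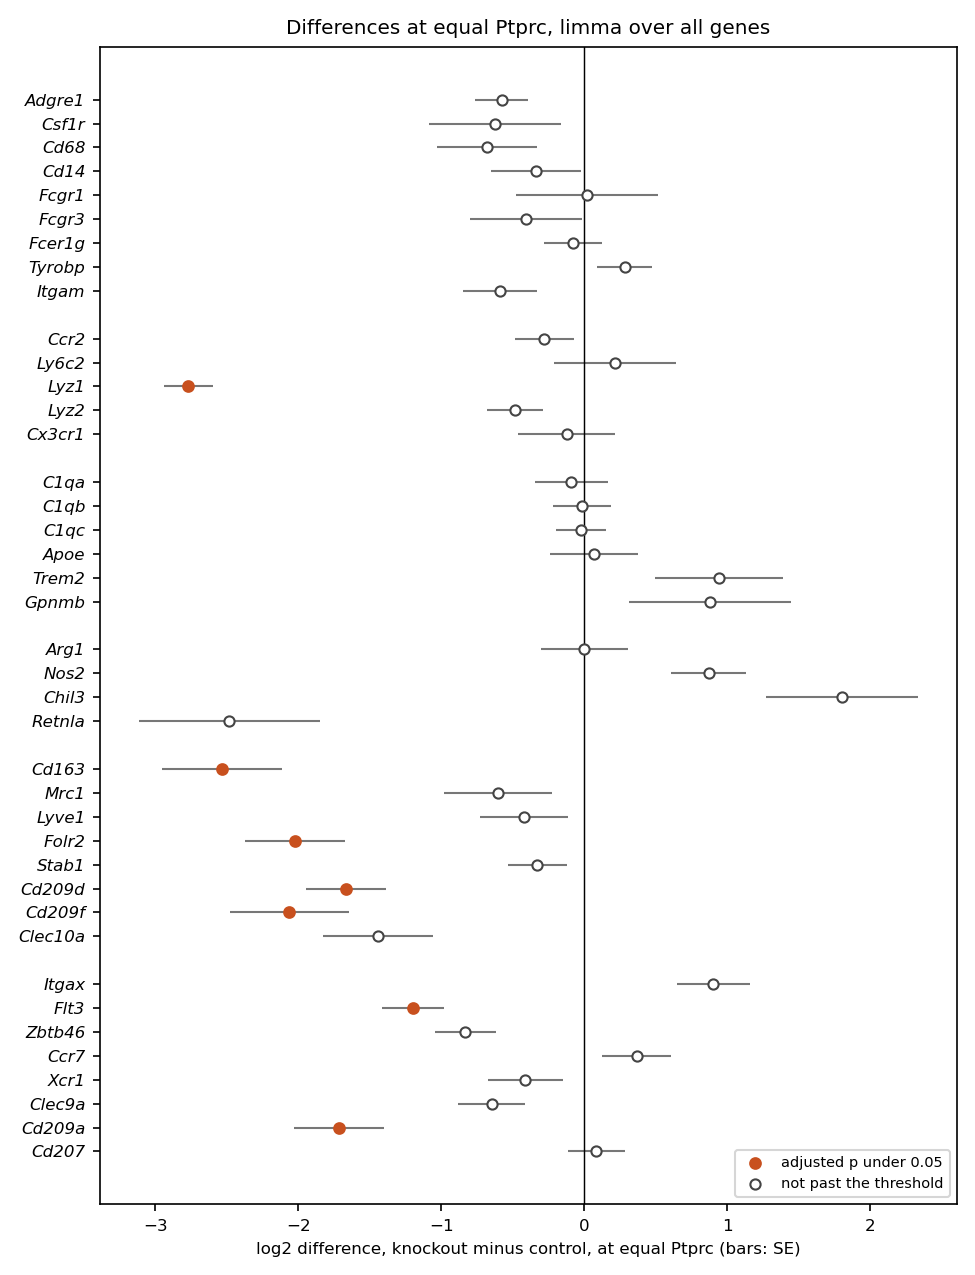
Log2 difference, knockout minus control, at equal Ptprc for each of the 40 genes, from limma over 18140 genes; bars are standard errors and filled points have an adjusted p under 0.05. The 7 filled points lie between -2.77 (Lyz1) and -1.20 (Flt3), and the 3 C1q genes lie within 0.10 of 0.

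Of the 9 genes common to macrophages and monocytes, 0 passed the test at equal Ptprc in either direction, and 1 was lower at an unadjusted p under 0.05 in limma. Their log2 differences were -0.68 to 0.28. They are Adgre1, which encodes the F4/80 antigen, Csf1r, the receptor for the macrophage growth factor CSF1, Cd68, a lysosomal glycoprotein, Cd14, a receptor for lipopolysaccharide, Fcgr1 and Fcgr3, receptors for antibody, Fcer1g and Tyrobp, the ITAM adaptors that pass on signals from such receptors, and Itgam, the integrin chain CD11b. Adgre1 was the member of this group whose ratios did not overlap, at 39.5, 32.1 and 27.7% of Ptprc in the controls against 20.3, 20.6, 22.5 and 25.1% in the knockouts. All 4 knockout values lay below the 3 controls, but the gap between the nearest libraries was small and the difference at equal Ptprc was -0.58 ± 0.18 (SE, limma adjusted p = 0.164). With the summed C1q genes in place of Ptprc as the reference, the Adgre1 ratios overlapped. Csf1r had normalized values of 354, 4601 and 4888 in the controls against 574, 283, 10149 and 8341 in the knockouts, and relative to Ptprc it ranged over 62.2% to 601% in controls against 54.8% to 107% in knockouts. The high Csf1r ratio belongs to control 4F, as does that of Cd68, Cd14, Fcgr1, Fcgr3 and Fcer1g. Tyrobp, at 6.58, 4.41 and 4.14% of Ptprc in the controls against 12.96, 9.53, 4.69 and 4.08% in the knockouts, was highest in knockouts 1M and 2M. Itgam shares 66.3% of its 50-base windows with the predicted gene Gm49368 and Fcgr3 shares 9.58% with Fcgr2b, so their counts depend on how shared reads were assigned.

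Among the monocyte and recruited macrophage genes, 1 of 5 changed at equal Ptprc, and it had the largest difference of all 40: Lyz1, 1 of the 2 lysozyme genes of the mouse. Lyz1 (ENSMUSG00000069515, chromosome 10) had normalized values of 20.1 (4F), 2206 (4M) and 2776 (7F) in controls against 20.8 (1M), 15.5 (2M), 871 (3F) and 555 (6F) in knockouts. Relative to Ptprc these were 34.2, 39.02 and 35.3% in the controls against 3.87, 2.99, 6.49 and 5.42% in the knockouts. The controls lay close to one another although their Ptprc ranged from 58.8 to 7853, and every knockout lay far below them. The mean was 36.2% ± 2.52 (SD, n = 3) in controls against 4.69% ± 1.56 (SD, n = 4) in knockouts, and the difference at equal Ptprc was -2.77 ± 0.17 (SE, limma adjusted p = 0.00234). Lyz2 (ENSMUSG00000069516, chromosome 10), the lysozyme gene of myeloid cells in general, lies next to Lyz1 on the chromosome. Its normalized values were 259, 19878 and 24162 in the controls against 1541, 1038, 36868 and 24392 in the knockouts, or 441, 352 and 308% of Ptprc in the controls against 287, 201, 275 and 238% in the knockouts. These ratios did not overlap either, but the difference at equal Ptprc was -0.48 ± 0.19 (SE, limma adjusted p = 0.264), and with the C1q genes as the reference the groups overlapped. Lyz1 as a percentage of Lyz2 was 7.76, 11.1 and 11.5 in the controls against 1.35, 1.49, 2.36 and 2.28 in the knockouts. This comparison within a gene pair uses no other leukocyte marker and also kept the groups apart.

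The sequences of the pair show how reads tell the genes apart. Over the 444 coding bases of the GENCODE transcripts Lyz1-201 and Lyz2-201, 22 bases differed (95.0% identity), and 12 of 148 residues. The first 150 bases from the start codon are given 5′ to 3′ with the 14 differing bases in capitals.
Lyz1: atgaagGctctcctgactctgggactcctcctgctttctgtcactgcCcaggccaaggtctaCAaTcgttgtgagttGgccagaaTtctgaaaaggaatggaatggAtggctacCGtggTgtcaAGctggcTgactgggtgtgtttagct
Lyz2: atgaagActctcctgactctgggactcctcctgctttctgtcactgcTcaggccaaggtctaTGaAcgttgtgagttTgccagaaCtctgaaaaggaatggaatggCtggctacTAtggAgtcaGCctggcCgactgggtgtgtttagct
Of the 50-base windows of all annotated exons, 16.1% of those of Lyz1 occur also in Lyz2, and 15.4% of those of Lyz2 in Lyz1, so most reads of this length separate the genes. How the authors assigned reads that match both is not given in the sources used here.

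**Figure D3:**
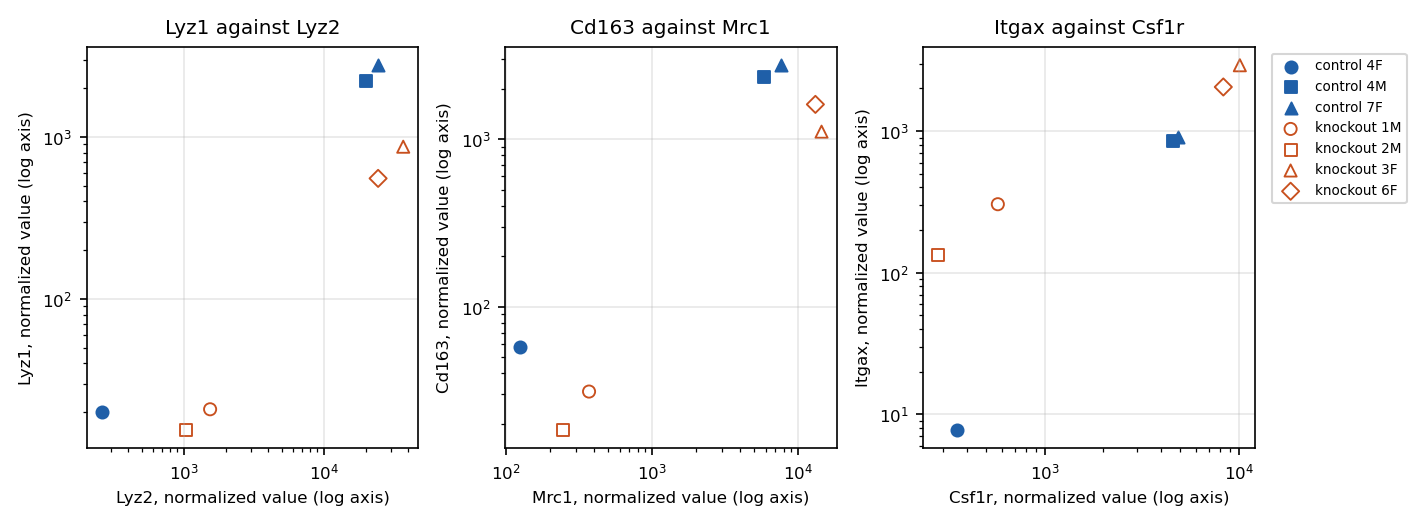
Normalized values (log axes) of Lyz1 against Lyz2, Cd163 against Mrc1 and Itgax against Csf1r in the 3 control libraries (filled) and the 4 knockout libraries (open). Lyz1 is 1.35% to 2.36% of Lyz2 in knockouts and 7.76% to 11.5% in controls, and in each panel the ratios of the 2 groups do not overlap. Itgax is 2.19% of Csf1r in control 4F, far below the 18.4% and 18.5% of 4M and 7F, and the lowest knockout is at 24.6%.

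The other monocyte genes did not pass the test. Ccr2, the chemokine receptor with which monocytes enter tissue, had normalized values of 30.97, 4607 and 6512 in the controls against 295, 199, 12346 and 9222 in the knockouts. Its ratio to Ptprc was 52.6% to 82.9% in controls against 38.5% to 91.98% in knockouts, with a difference at equal Ptprc of -0.28 ± 0.20 (SE, limma adjusted p = 0.577). Ly6c2, a surface antigen of classical monocytes, was low throughout, at 27.9, 37.6 and 35.2 in the controls against 21.2, 15.6, 133 and 78.01 in the knockouts, with a difference of 0.22 ± 0.43 (SE, limma adjusted p = 0.869), and 14.4% of its 50-base windows are shared, mostly with Ly6c1. Cx3cr1, the fractalkine receptor of patrolling monocytes and some tissue macrophages, gave -0.12 ± 0.34 (SE, limma adjusted p = 0.914). Their ratios overlapped between the groups.

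The complement C1q genes followed Ptprc closely. C1qa, C1qb and C1qc encode the 3 chains of C1q, which macrophages secrete. C1qb had normalized values of 29.4, 2441 and 2548 in the controls against 277, 173, 4799 and 4623 in the knockouts, which are 50, 43.2 and 32.4% of Ptprc in the controls against 51.5, 33.5, 35.8 and 45.1% in the knockouts. The ratio thus stayed within 32.4% to 51.5% while Ptprc itself ranged from 58.8 to 13422 normalized units, and the libraries of both groups were mixed in order. The differences at equal Ptprc were -0.09 ± 0.26, -0.01 ± 0.20 and -0.02 ± 0.17 (SE), with limma adjusted p of 0.915, 0.985 and 0.97. Trem2, a lipid-sensing receptor that signals through Tyrobp, had normalized values of 0, 32.8 and 29.2 in the controls against 15.6, 8.69, 154 and 219 in the knockouts, or 0, 0.581 and 0.372% of Ptprc in the controls against 2.90, 1.68, 1.15 and 2.14% in the knockouts. Every knockout had a higher ratio than control 4M and 7F. The 0 in control 4F says little, since 3 reads there would already be 3.95% of Ptprc. At equal Ptprc the difference of Trem2 was 0.94 ± 0.44 (SE, limma adjusted p = 0.349) with all libraries and 1.62 ± 0.31 (SE, limma adjusted p = 0.00801) without control 4F. The fit without control 4F called 1646 of all genes and had no leukocyte-poor control.

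Apoe and Gpnmb, further genes of lipid-laden macrophages, were not ordered like Ptprc. Apoe, the lipid carrier apolipoprotein E, had normalized values of 4820.3, 3014 and 2943 in the controls against 4521, 2156, 3906 and 4510.4 in the knockouts, with no order by group or by Ptprc. Gpnmb, a glycoprotein of pigment cells, macrophages and other cells, had 1403, 596 and 580.4 in the controls against 3801, 4051, 334 and 329 in the knockouts. Knockouts 1M and 2M were the highest and knockouts 3F and 6F the lowest. The differences at equal Ptprc were 0.07 ± 0.31 (SE, limma adjusted p = 0.95) for Apoe and 0.88 ± 0.56 (SE, limma adjusted p = 0.511) for Gpnmb. Pigment cell markers summed to 9.57 to 20.6 per M in controls and 8.15 to 32.02 per M in knockouts, and their part in the level of Gpnmb was not tested.

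Of the 4 activation genes, 0 passed the test at equal Ptprc, with 2 higher and 1 lower at an unadjusted p under 0.05 in limma. Chil3 had normalized values of 0, 7.88 and 12.4 in the controls against 30.2, 8.69, 251 and 124 in the knockouts, or 0, 0.139 and 0.158% of Ptprc in the controls against 5.61, 1.68, 1.87 and 1.21% in the knockouts. The 4 knockout ratios lay above those of control 4M and 7F, whereas control 4F, with 0, is uninformative at the same floor of 3.95%. Its difference at equal Ptprc was 1.80 ± 0.53 (SE, limma adjusted p = 0.135), and 2.63 ± 0.35 (SE, limma adjusted p = 0.00127) without control 4F, where 1646 of all genes passed and no control was leukocyte-poor. Chil3 shares 26.9% of its 50-base windows, mostly with its paralog Chil4, so its count is uncertain by the reads of that gene. Neutrophil markers relative to Ptprc were likewise higher in the 4 knockouts than in control 4M and 7F, and their part in the level of Chil3 was not tested. Nos2 had normalized values of 6.19, 6.56 and 2.25 in the controls against 23.9, 27.05, 15.8 and 7.58 in the knockouts. The 4 knockouts were the highest, but 6F had only 11 reads of it and control 4M 5, and the difference at equal Ptprc was 0.87 ± 0.26 (SE, limma adjusted p = 0.141). Nos2 passed the filter on low values through knockouts 1M, 2M and 3F alone. Arg1, the arginase of alternatively activated macrophages, stayed between 6.56 and 23.2 normalized units in all libraries, with a difference of -0.00 ± 0.30 (SE, limma adjusted p = 0.999). Retnla, a secreted protein of alternatively activated macrophages, had 10.8, 3181 and 2765 in the controls against 12.5, 2.90, 1269 and 3916 in the knockouts. As a share of Ptprc it was 18.4, 56.3 and 35.2% in the controls against 2.32, 0.561, 9.46 and 38.2% in the knockouts, low in knockouts 1M, 2M and 3F, while 6F lay between control 7F and control 4M. Its difference at equal Ptprc was -2.48 ± 0.63 (SE, limma adjusted p = 0.0958). Without knockout 6F, the only knockout within the range of the control ratios, it was -3.04 ± 0.35 (SE, limma adjusted p = 0.0231). Removing that library favours a pass, and Retnla passed in no other fit that left out 1 library.

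The genes of resident macrophages leaned furthest to the lower side. At equal Ptprc, 4 of 8 fell, 0 rose, and all 8 estimates were negative, with a median of -1.56 on the log2 scale beside 0.02 for all genes. Cd163 (ENSMUSG00000008845, chromosome 6), the scavenger receptor for haemoglobin bound to haptoglobin, had normalized values of 57.3 (4F), 2360.5 (4M) and 2766 (7F) in controls against 31.2 (1M), 18.4 (2M), 1110.2 (3F) and 1615 (6F) in knockouts. Relative to Ptprc these were 97.4, 41.8 and 35.2% in the controls against 5.80, 3.55, 8.27 and 15.8% in the knockouts. The highest knockout, 6F, reached less than the lowest control, 7F. The difference at equal Ptprc was -2.54 ± 0.42 (SE, limma adjusted p = 0.0221). Against Mrc1, the mannose receptor and another gene of resident macrophages, Cd163 was 45.96%, 40.2% and 35.98% in the controls against 8.43%, 7.51%, 7.67% and 12.3% in the knockouts.

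Folr2 (ENSMUSG00000032725, chromosome 7), a folate receptor of perivascular macrophages, had normalized values of 7.30, 430.5 and 266 in the controls against 1.49, 0.966, 144 and 187 in the knockouts. In knockouts 1M and 2M these are about 1 read each, so the low ratios of those libraries rest on almost no reads, while 3F and 6F had 128 and 272 reads. Relative to Ptprc Folr2 was 12.4, 7.62 and 3.38% in the controls against 0.278, 0.187, 1.07 and 1.83% in the knockouts, and at equal Ptprc it fell by 2.02 ± 0.35 (SE, limma adjusted p = 0.0258). Cd209d (ENSMUSG00000031495, chromosome 8) and Cd209f (ENSMUSG00000051906, chromosome 8) belong to the mouse family of DC-SIGN lectins, which bind sugars on microbes. Cd209d stood at 17.1, 7.46 and 5.61% of Ptprc in the controls against 2.13, 1.12, 1.94 and 2.81% in the knockouts, and Cd209f at 11.5, 6.76 and 5.05% of Ptprc in the controls against 1.16, 0.561, 0.556 and 2.51% in the knockouts. For both lectins all knockout ratios were below all control ratios. In knockouts 1M and 2M the ratios rest on 11 and 6 reads of Cd209d and on 6 and 3 of Cd209f. Control 4F had 13 reads of Cd209d and 8.75 of Cd209f. The falls at equal Ptprc were -1.67 ± 0.28 (SE, limma adjusted p = 0.0234) for Cd209d and -2.06 ± 0.41 (SE, limma adjusted p = 0.0447) for Cd209f. Cd209f shares 29.8% of its 50-base windows with Cd209g, and lost its call with a pseudocount of 4 per M or a filter of 5 per M, at adjusted p of 0.0674 and 0.0534.

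Clec10a, a galactose-binding lectin of macrophages and dendritic cells, had 35.5, 16.95 and 11.5% of Ptprc in the controls against 4.84, 3.74, 6.10 and 10.6% in the knockouts. Its groups did not overlap, although knockout 6F and control 7F nearly met, and the difference at equal Ptprc was -1.44 ± 0.38 (SE, limma adjusted p = 0.107). Mrc1 itself had normalized values of 125, 5866 and 7688 in the controls against 370.1, 244, 14481 and 13143 in the knockouts. Its ratio to Ptprc was 97.9% to 212% in controls against 47.3% to 128% in knockouts, so the groups overlapped, and it gave -0.61 ± 0.38 (SE, limma adjusted p = 0.498). Lyve1, a hyaluronan receptor, and Stab1, a scavenger receptor, mark macrophages along vessels and also lymphatic or other endothelium. They gave -0.42 ± 0.31 (SE, limma adjusted p = 0.579) and -0.33 ± 0.20 (SE, limma adjusted p = 0.496). Lymphatic endothelium markers summed to 454 and 441 per M in knockouts 1M and 2M and to 108 to 211 per M in the other 5 libraries, and their part in the levels of Lyve1 and Stab1 was not tested.

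**Figure D4:**
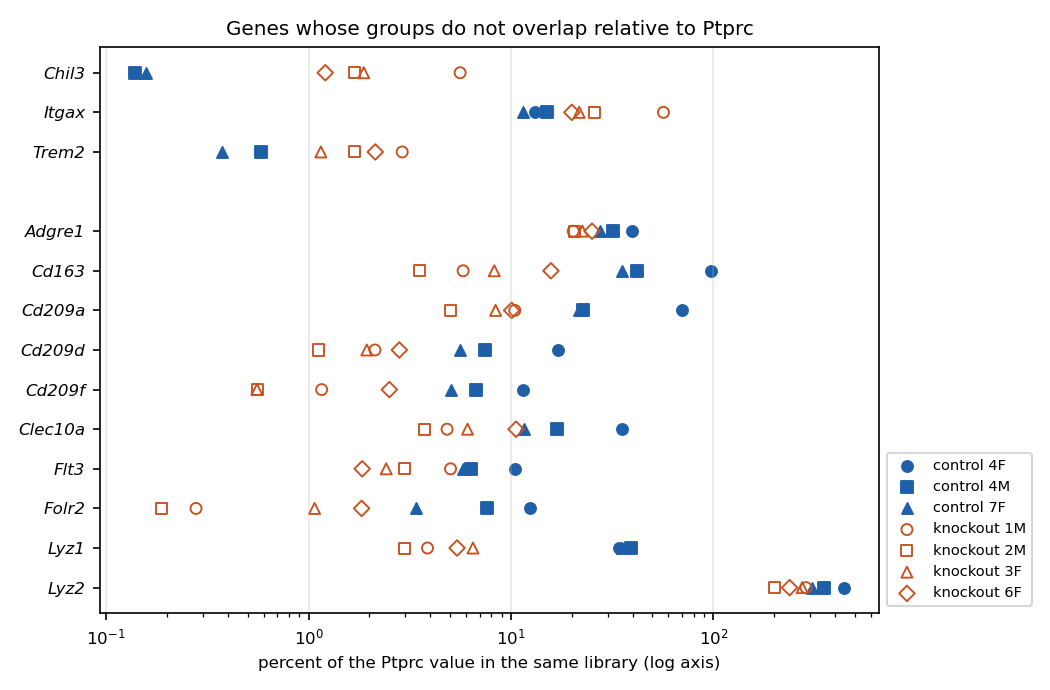
Percent of the Ptprc value of the same library (log axis) for the 13 genes whose groups do not overlap, in the 3 control libraries (filled) and the 4 knockout libraries (open); the upper 3 genes are higher in knockouts and the lower 10 are lower. Trem2 and Chil3 are at 0 in control 4F and not drawn there; Lyz1 lies at 34.2% to 39.02% in controls against 2.99% to 6.49% in knockouts.

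Of the 8 dendritic and Langerhans cell genes, 2 fell at equal Ptprc and 0 rose. Cd209a (ENSMUSG00000031494, chromosome 8), the lectin that marks monocyte-derived and some conventional dendritic cells, had normalized values of 41.03, 1287 and 1707 in the controls against 56.1, 26.1, 1127 and 1033 in the knockouts, or 69.7, 22.8 and 21.7% of Ptprc in the controls against 10.4, 5.05, 8.40 and 10.1% in the knockouts. Each knockout ratio lay below every control ratio, and the difference was -1.71 ± 0.32 (SE, limma adjusted p = 0.0324). Flt3 (ENSMUSG00000042817, chromosome 5), the receptor for the growth factor of dendritic cells, stood at 10.5, 6.32 and 5.79% of Ptprc in the controls against 5.03, 2.99, 2.42 and 1.84% in the knockouts. The groups did not overlap, with knockout 1M close to control 7F, and the difference was -1.20 ± 0.22 (SE, limma adjusted p = 0.0317). Control 4F had 8 reads of Flt3. As a percentage of Ccr2, Flt3 was 6.98 to 20 in controls and 2.05 to 9.15 in knockouts, so these groups overlapped. Cd209a was 26.2 to 132.5 and 9.13 to 19.01 on the same scale, without overlap. Itgax (ENSMUSG00000030789, chromosome 7), the integrin chain CD11c of dendritic cells and some macrophages, had higher ratios in knockouts. It had normalized values of 7.74, 847 and 905 in the controls against 305, 133, 2917 and 2049 in the knockouts, or 13.2, 14.98 and 11.5% of Ptprc in the controls against 56.7, 25.8, 21.7 and 19.99% in the knockouts. All 4 knockouts were above all 3 controls, and knockout 1M stood far above the rest. The difference at equal Ptprc was 0.90 ± 0.25 (SE, limma adjusted p = 0.123). Itgax as a percentage of Itgam was 29.4 to 47.3 in controls and 75.6 to 284 in knockouts, and as a percentage of Csf1r 2.19 to 18.5 and 24.6 to 53.1. Itgax shares 8.02% of its 50-base windows with Itgad.

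The remaining dendritic cell genes passed no test. Zbtb46, a transcription factor of conventional dendritic cells also found in endothelium, gave -0.83 ± 0.21 (SE, limma adjusted p = 0.0975). Xcr1, a chemokine receptor, and Clec9a, a receptor for dead cells, mark the dendritic cells that cross-present antigen, and gave -0.41 ± 0.26 (SE, limma adjusted p = 0.505) and -0.65 ± 0.23 (SE, limma adjusted p = 0.214). Ccr7, the chemokine receptor that guides mature dendritic cells to lymph nodes, gave 0.37 ± 0.24 (SE, limma adjusted p = 0.525). Cd207, the Langerhans cell lectin langerin, had normalized values of 4.65, 109 and 123 in the controls against 28.1, 29.9, 197 and 161 in the knockouts and gave 0.08 ± 0.20 (SE, limma adjusted p = 0.895). Its ratio to Ptprc was 1.56% to 7.89% in controls against 1.47% to 5.79% in knockouts, with the highest values in the 3 leukocyte-poor libraries, so the groups were mixed.

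The bases upstream of all 7 genes that fell are shown because these genes moved together at equal Ptprc. They come from RefSeq (GRCm38.p6), where 30 of the 40 genes had an entry, and are the 250 bases before the annotated start, 5′ to 3′ along the gene. The windows are chr10:117292869-117293118 on the minus strand for Lyz1, chr6:124304401-124304650 on the plus strand for Cd163, chr8:4105765-4106014 on the minus strand for Cd209f, chr7:101857191-101857440 on the minus strand for Folr2, chr8:3748985-3749234 on the minus strand for Cd209a, chr8:3878500-3878749 on the minus strand for Cd209d and chr5:147400490-147400739 on the minus strand for Flt3. Capitals mark GAGGAA, a form of sites for the myeloid factor PU.1, searched on both strands, so that TTCCTC is a match on the other strand.
Lyz1: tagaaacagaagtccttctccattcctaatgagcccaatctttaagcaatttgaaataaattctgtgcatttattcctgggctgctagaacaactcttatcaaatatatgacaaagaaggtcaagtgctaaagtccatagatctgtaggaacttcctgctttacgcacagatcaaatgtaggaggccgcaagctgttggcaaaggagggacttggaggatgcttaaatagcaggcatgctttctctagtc
Cd163: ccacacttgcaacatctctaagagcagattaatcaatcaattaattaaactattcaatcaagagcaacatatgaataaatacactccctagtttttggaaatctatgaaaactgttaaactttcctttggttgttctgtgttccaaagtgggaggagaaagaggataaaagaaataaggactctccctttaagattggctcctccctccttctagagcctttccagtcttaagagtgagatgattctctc
Cd209f: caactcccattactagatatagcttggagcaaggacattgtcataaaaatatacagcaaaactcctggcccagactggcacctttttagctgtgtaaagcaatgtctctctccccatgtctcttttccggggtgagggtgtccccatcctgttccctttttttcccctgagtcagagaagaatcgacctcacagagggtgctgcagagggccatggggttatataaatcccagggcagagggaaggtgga
Folr2: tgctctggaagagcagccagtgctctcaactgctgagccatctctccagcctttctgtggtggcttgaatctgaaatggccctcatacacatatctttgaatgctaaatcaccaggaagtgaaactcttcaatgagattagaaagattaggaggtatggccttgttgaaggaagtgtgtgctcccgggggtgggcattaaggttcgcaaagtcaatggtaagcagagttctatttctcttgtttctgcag
Cd209a: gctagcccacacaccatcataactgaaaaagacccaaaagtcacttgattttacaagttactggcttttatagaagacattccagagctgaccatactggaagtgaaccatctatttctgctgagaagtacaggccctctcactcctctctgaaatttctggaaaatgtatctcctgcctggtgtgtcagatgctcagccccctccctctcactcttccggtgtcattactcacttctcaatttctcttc
Cd209d: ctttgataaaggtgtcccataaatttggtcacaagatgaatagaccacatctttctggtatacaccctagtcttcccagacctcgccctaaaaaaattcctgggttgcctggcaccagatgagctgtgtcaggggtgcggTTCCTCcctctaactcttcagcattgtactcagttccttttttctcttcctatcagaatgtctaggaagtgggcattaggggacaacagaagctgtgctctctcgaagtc
Flt3: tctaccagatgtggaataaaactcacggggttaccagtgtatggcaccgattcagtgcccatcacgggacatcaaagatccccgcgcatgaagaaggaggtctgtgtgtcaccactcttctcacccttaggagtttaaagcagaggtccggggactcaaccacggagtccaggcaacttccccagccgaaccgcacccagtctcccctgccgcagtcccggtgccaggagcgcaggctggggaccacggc
The motif was found once in the window of Cd209d and not in the other 6. It was in 14 of the 30 genes with an entry (46.7%) and in 23.1% of all 27025 windows of this length. A match describes letters and not a bound site, and no match says only that these letters are not in this window. Other forms of PU.1 sites were not searched.

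Further genes of the same cells, chosen by role, were read at equal Ptprc against the same 1.55% of all genes that fell and 0.739% that rose. Of 17 further resident macrophage genes tested, 4 fell and 0 rose, and 16 of 17 estimates were negative with a median of -0.71. Some of the 17 did not follow Ptprc. Gas6, Selenop and Igf1 stood at 8526%, 11094% and 9965% of Ptprc in control 4F against 36.6%, 125% and 72.9% in 7F. The count of negative estimates thus does not describe leukocyte RNA alone. Cd209g fell by 2.36 ± 0.29 (SE, limma adjusted p = 0.0084) and Cd209b by 1.69 ± 0.27 (SE, limma adjusted p = 0.0199), both lectins in the same stretch of chromosome 8 as Cd209a, Cd209d and Cd209f. Cd209b stood at 11.8, 4.09 and 2.68% of Ptprc in the controls against 0.58, 0.561, 0.722 and 1.28% in the knockouts. Timd4, a phosphatidylserine receptor of long-lived resident macrophages, fell by 1.65 ± 0.26 (SE, limma adjusted p = 0.0187) and stood at 6.58, 1.44 and 1.39% of Ptprc in the controls against 0.774, 0.187, 0.143 and 0.222% in the knockouts. Few reads underlie these values in knockouts 1M and 2M: 1 and 0 of Cd209g, 3 and 3 of Cd209b, and 4 and 1 of Timd4. Control 4F had 5 reads of Timd4 and 9 of Cd209b. Slco2b1, a transporter of the organic anion family, fell by 0.89 ± 0.15 (SE, limma adjusted p = 0.0222), but its normalized values of 2489.7, 1446 and 1408 in the controls against 1242, 978, 651 and 675 in the knockouts were highest in the library poorest in leukocyte RNA. Leaving out 1 library at a time, Cd209g passed in 5 of 7 fits, Timd4 in 3, and Cd209b and Slco2b1 in 2, and none of the 4 passed without control 4M or without control 7F, where limma adjusted p reached 0.0794 for Cd209g and 0.154 for Slco2b1.

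Among growth factors and transcription factors of myeloid cells, Runx3, a transcription factor of lymphocytes, dendritic cells and other cells, had normalized values of 92.9, 277 and 370.1 in the controls against 703, 828, 1369 and 979 in the knockouts. It rose at equal Ptprc by 1.91 ± 0.20 (SE, limma adjusted p = 0.00772), and its 3 controls were the lowest libraries. Of 20 phagocytosis, lysosome and lipid genes, 1 rose and 0 fell: Lgals3, the sugar-binding protein galectin-3, with normalized values of 1620.4, 1256 and 1231 in the controls against 2628, 2970.1, 3082 and 3301 in the knockouts and 1.14 ± 0.16 (SE, limma adjusted p = 0.0133). Runx3 and Lgals3 did not follow Ptprc, at 158% and 2754% of it in control 4F against 4.71% and 15.7% in 7F. Their rises thus do not describe leukocyte RNA alone. Of 21 further dendritic and Langerhans cell genes, 1 rose and 0 fell: Itgae, the integrin chain CD103 of some dendritic cells and of T cells in epithelia, with 11.6, 229.7 and 332 in the controls against 167, 238, 1191 and 844 in the knockouts and 1.47 ± 0.19 (SE, limma adjusted p = 0.00933). No gene passed among 18 partners of the ITAM adaptors, where Fcgr2b, the inhibitory antibody receptor, and Syk, the kinase that binds ITAMs, gave 2.33 ± 0.55 (SE, limma adjusted p = 0.0762) and -0.52 ± 0.35 (SE, limma adjusted p = 0.541). None passed among 15 further monocyte genes, where Fn1 and Thbs1, matrix proteins that fibroblasts also make, gave 0.19 ± 0.33 (SE, limma adjusted p = 0.848) and 0.51 ± 0.26 (SE, limma adjusted p = 0.403). The unadjusted counts at p under 0.05 in limma were 4 higher and 0 lower for the 18 ITAM partners and 1 higher and 2 lower for the 15 monocyte genes, against 16.1% of all genes in either direction. Leaving out 1 library, Runx3 passed in 6 of 7 fits, all but the one without control 4M, and Lgals3 and Itgae in 5 of 7, all but those without control 4M or 7F.

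Other leukocytes also carry Ptprc, and their markers moved with the libraries. T cell markers, 9 genes, summed to 79.8%, 8.08% and 7.74% of Ptprc in the controls and to 44.7%, 49.6%, 12.4% and 10.4% in the knockouts. Markers of mast cells, basophils or eosinophils, 6 genes found, summed to 88.2%, 72.1% and 78.02% in the controls and to 200%, 176%, 65.05% and 62.8% in the knockouts. Neutrophil markers, 4 genes found, summed to 6.58%, 1.90% and 1.86% in the controls and to 19.5%, 6.73%, 6.45% and 4.37% in the knockouts. All 3 lists thus took more of Ptprc in knockouts 1M and 2M than in control 4M and 7F. In knockouts 3F and 6F the T cell and neutrophil lists also took more than in control 4M and 7F, and the mast cell list took less. Of the defining markers, Cd3d of T cells, S100a9 and Cxcr2 of neutrophils and Mcpt8 and Siglecf of basophils and eosinophils were at 0 in at least 1 library. Their part in the ratios was not tested. With the summed C1q genes, a reference chosen after seeing the data that itself follows Ptprc, 8 of the other 37 genes were lower without overlap and 3 were higher, where 0.75% and 0.38% of all genes were. These were the genes apart relative to Ptprc, without Adgre1 and Lyz2, and the higher 3 include Trem2 and Chil3 with their 0 in control 4F. The shares of all genes are a low background here too.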

How the data were processed

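Per the labels' protocols, a PureLink kit served for RNA extraction and NEBNext Ultra II for library preparation. The submitters' processing notes name TopHat2 2.1.0 and Partek 9.0.20.0202. Of genome build, gene annotation and strand setting, each is not given in the sources used here. Per the file headers, the authors deposited normalized counts, treated here as a signal, since each column holds partly estimated reads divided by 1 factor. In each library 78.0% to 79.5% of the values below 200 reads came to a whole number of reads within a tolerance of 0.02, so whole reads were not recovered and no count test was run. Read numbers in the text are values divided by the step.

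The 40 genes, the further lists and the covariate were chosen with earlier results of these data known. Genes at 1 per M or more in at least 3 libraries were kept. limma 3.58.1 in R 4.3.3 was fitted to log2(value + 11.9), which understates changes of low genes, with a trend, Benjamini-Hochberg adjustment over all genes and 2 designs: genotype alone (5 residual degrees of freedom), and genotype with log2 Ptprc, which leaves Ptprc out (4). Ratios to Ptprc used no pseudocount. Of each further list, up to 4 genes past the threshold, or else the 2 with the highest mean, are named, except that 1 gene is not reported here. Alternatives were other pseudocounts, filters, scalings, weights, a sex term, another leukocyte reference and leaving out each library. The C1q reference and the test of genotype by sex were added after seeing the data.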

Additional observations from a re-analysis of the deposited data

Results flagged for a closer look

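In the 4 knockouts, Chil3 relative to Ptprc was 5.61% in 1M, while 2M, 3F and 6F lay between 1.21% and 1.87%, which set 1M apart from the other libraries of its group. Itgax relative to Ptprc was 56.7% in 1M, while the others lay between 19.99% and 25.8%. The count was 2 of 80 group values examined for a library standing apart, and chance alone gives about 1 in 20.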

How the results depend on the processing

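No paired analysis was possible because the columns of the table carry none of the replicate numbers in the sample titles. With genotype alone, the counts of 0 higher, 0 lower and 0 of all genes held under every alternative except array weights, which gave 2 higher, 19 lower and 3795 genes. There Adgre1 (-3.32), Itgam (-3.38), Mrc1 (-3.68) and Xcr1 (-2.20) turned from positive to negative, and the cause was not tested. At equal Ptprc, 7 lower, 0 higher and 415 genes became 2 higher and 1272 genes with array weights (9 lower), and 1 higher (Chil3) and 866 genes with a sex term, the cause of neither being tested. Leaving out 1 library gave 1 to 7 lower, 0 to 2 higher and 5 (without control 4M) to 1646 (without control 4F) genes. The fall of Lyz1 passed in all 7 of these fits, with limma adjusted p of 4.52e-05 to 0.0497, and in the 10 other alternatives. Cd163 and Cd209a passed in 3 of 7, and Folr2, Cd209d, Cd209f and Flt3 in 2 of 7. The count of 13 ratios apart was 13 with 5 leukocyte genes as the reference and 9, all lower, with a pseudocount in both terms. It was 13 to 15 when a library was left out, which does not test its stability. Leaving out a library cannot make separate groups overlap, so the count could only stay or rise. The share of all genes higher without overlap rose too, from 0.386% to 2.95% without control 4F. Low reads limit the ratios of control 4F, where 3 reads are 3.95% of Ptprc.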
